A study of Mus musculus with 2 samples.

Results

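The ribosomal protein genes of the cytosol were described over mouse spermatogenesis, as the gene symbols of the form Rpl or Rps with a number, together with Rplp0 to Rplp2 and Rpsa. Of the 84 symbols of this form, 74 could be tied to 1 row of the deposited matrix and were read, 42 of the large and 32 of the small subunit, among 5476 such symbols and 26758 rows in all. The other 10, Rpl3, Rpl5, Rpl6l, Rpl10, Rpl13a, Rpl15, Rpl24, Rpl27a, Rpl32l and Rpl36al, had from 2 to 24 possible rows and were not analysed here. Single cells of testes of adult C57BL/6 mice (C57BL/6N in the study's methods), dispersed with collagenase I, came from wild-type mice (WT) or from mice in which all exons of Tex13a had been removed with CRISPR-Cas9 (KO). Each genotype is 1 library made from 3 pooled testes of 3 mice. Genotype and library therefore cannot be told apart, no test was made between them, and the intervals given cover counting error only. The study's own 13 clusters follow the course from spermatogonia (Sg) over spermatocytes (Sc1 and Sc2) and Sd1 to spermatids (Sd2 to Sd10). The study describes Sd1 as a mixture of spermatocytes and early spermatids. The WT library holds 45568532 unique molecular identifiers (UMIs, each 1 captured mRNA molecule) in 5170 cells and the KO library 67734689 in 7238 cells, with 184 and 278 cells in Sd10. No cell barcode occurs in both libraries. Tex13a itself has more than 1 possible row and was not read, so that it gives no check of the labels here.

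Markers of stage followed the cluster names in part. The 9 spermatocyte markers summed to 11622 counts per 1e6 UMIs (CPM) in Sc1 and 171 in Sd10 of WT, and the 6 round spermatid markers were highest in Sd4. The 6 spermatogonia markers read summed to 3465 CPM in Sg but 7071 in Sc1 of WT, above their namesake cluster. The 8 late spermatid markers were highest in Sd8, with 301570.0 CPM in WT, and 41485 CPM of them were also read in Sg. Levels are CPM of summed UMIs throughout, not scaled by transcript length because each molecule is counted once, and they are relative: a cell with fewer molecules of a gene and a cell with more of all other mRNA cannot be told apart.

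A ribosome of the cytosol is built from ribosomal RNA and from large-subunit (Rpl) and small-subunit (Rps) proteins, most of them encoded by a single active gene. Their mRNAs typically start with a run of pyrimidines, the terminal oligopyrimidine tract, through which growth signals control their translation. In the male germ line, genes on the X chromosome are silenced during meiosis, and several ribosomal proteins have autosomal, often intronless copies that are used in testis. Later, when the spermatid nucleus condenses, transcription stops and the cell depends on stored mRNA.

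Whether a gene can be told from its paralog depends on sequence. The parent gene Rpl39 lies on the X chromosome (chrX:37082520-37085402, minus strand, GENCODE vM21 on GRCm38, the same build as mm10) and its paralog Rpl39l on chromosome 16 (chr16:10170226-10174911, plus strand). Both coding sequences have 153 bases before the stop codon and differ at 23 of them. The 30 coding bases within 1 exon that differ most are shown here for Rpl39 and Rpl39l and for Rps27 and Rps27l, with the differing bases in capitals.
Rpl39, chrX:37082713-37082742 (minus strand): tcTaagAgAagacaCtggagGAgaacGaaG
Rpl39l, chr16:10174424-10174453 (plus strand): tcCaagCgGagacaTtggagACgaacCaaA
Rps27, chr3:90213272-90213301 (minus strand): ctCgcAaAGgatctCCtTcaTccCtcTCCA
Rps27l, chr9:66946831-66946860 (plus strand): ctGgcTaGAgatctGTtAcaCccTtcCTTG
Of the 775 stretches of 31 bases in the Rpl39l transcript, 8 also occur in Rpl39, and none of those in its last 300 bases, next to the poly(A) tail. The same was found for Rps4l, a paralog of the X-linked Rps4x, with 8 of 913 stretches shared and none in the last 300 bases. Rps4l (chr6:148354656-148355598, plus strand) is annotated as a transcribed processed pseudogene. Reads of other near-identical copies may still have been counted for a gene, and reads of a gene may have been lost to such copies. Neither was tested, and the shares of a pair given below rest on the reads that were counted.

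The start sites differ between members. In the RefSeq table of gene starts (GRCm38.p6), 54 of the 74 genes were found, and 23 of these (42.6%) have a run of at least 8 pyrimidines on the gene's strand within 15 bases either side of a start, against 13.9% of all 27025 genes in the table. Shown are these 30 bases for Rps27 and Rpl39, which have such a run (in capitals), and for the paralog Rpl39l and for Rpl41, which do not.
Rps27, chr3:90213634-90213663 (minus strand): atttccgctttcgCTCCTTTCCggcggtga
Rpl39, chrX:37085208-37085237 (minus strand): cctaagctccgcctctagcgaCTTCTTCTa
Rpl39l, chr16:10170213-10170242 (plus strand): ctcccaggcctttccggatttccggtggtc
Rpl41, chr10:128549154-128549183 (minus strand): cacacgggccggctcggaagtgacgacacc
A run is a description of these letters and not a measured start or control site. By late course, described further on, the run was found in 3 of 6 genes that fell by Sd7 or Sd8, 6 of 10 that fell by Sd9, 3 of 8 that fell by Sd10 and 6 of 18 that were kept.

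The genes together made up a falling part of the UMIs over the course. In WT their share was 8% in Sc1, 5.8% in Sc2, 4.31% in Sd1 and 2.7% in Sd4. It was lowest in Sd5, at 2.15%, and stayed between 2.29% and 2.52% from Sd6 to Sd10. The KO library followed a similar course up to Sd9, with 7.29% in Sc1, 3.92% in Sd1, 1.99% in Sd5 and 2.45% in Sd9. In Sd10 of KO the share was 2.01%, near its lowest value. In numbers of molecules, the mean cell of WT held 844 UMIs of these genes in Sc2 and 156 in Sd10, and that of KO 755 and 128. Per cell, too, fewer of these molecules were thus captured in Sd10 than in Sc2. All UMIs per cell were also fewer, with 14567 in Sc2 and 6808 in Sd10 of WT and 14199 and 6339 in KO. Capture and content of the cells cannot be told apart here.

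**Figure D1:**
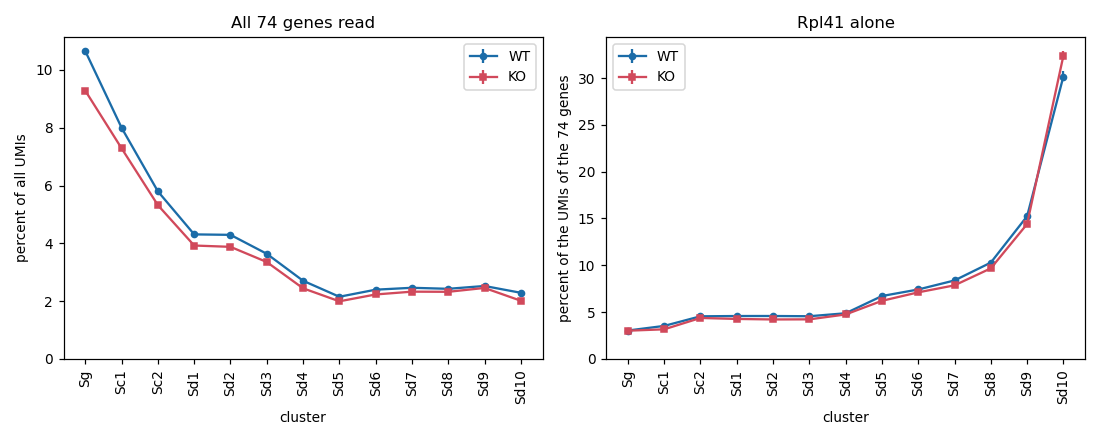
Share of all UMIs that belong to the 74 ribosomal protein genes (left, percent) and share of those UMIs that belong to Rpl41 (right, percent), by cluster, in the WT and KO library, with exact binomial 95% intervals that are mostly smaller than the points. The share of all genes falls to its lowest value in Sd5 (2.15% in WT), and that of Rpl41 rises to 30.2% in WT and 32.4% in KO in Sd10.

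Nearly all members were lower in late spermatids than in spermatogonia. A ratio was read where the 2 sums held at least 10 UMIs together. In WT 67 of 73 read members were at least 2-fold lower in Sd10 than in Sg, where 72.8% of all rows read were, and in KO 67 of 73, against 70.8%. The median log2 ratio of Sd10 to Sg was -4.25 for the members and -3.09 for all rows in WT, and -4.48 and -2.92 in KO. Relative to that median of all rows, 43 of 73 members were 2-fold lower in WT. The share of all rows past this centred limit was not taken, so the count has no background beside it. Most members, 59 in WT and 54 in KO, had their highest CPM in Sg, and those highest in Sc1 of WT included Rps27, Rps27l, Rps28 and Rps29.

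Among the members with the lowest ratios in WT were Rpl14, the X-linked Rpl36a, Rps2 and Rps3. Rpl14, a large-subunit protein, had 1975 CPM in Sg, 484 in Sc2, 22 in Sd3 and 12.8 in Sd10 of WT, and 1941, 421, 15.8 and 9.65 in KO. Rps3, a small-subunit protein at the mRNA entry site, had 1623 CPM in Sg and 28.1 in Sd4 of WT, and 1391 and 22.6 in KO. Both genes had thus reached their low level by the round spermatid clusters. Rps2, also of the small subunit, went down in steps instead, with 2457 CPM in Sg, 243 in Sd5 and 23.9 in Sd10 of WT.

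**Figure D2:**
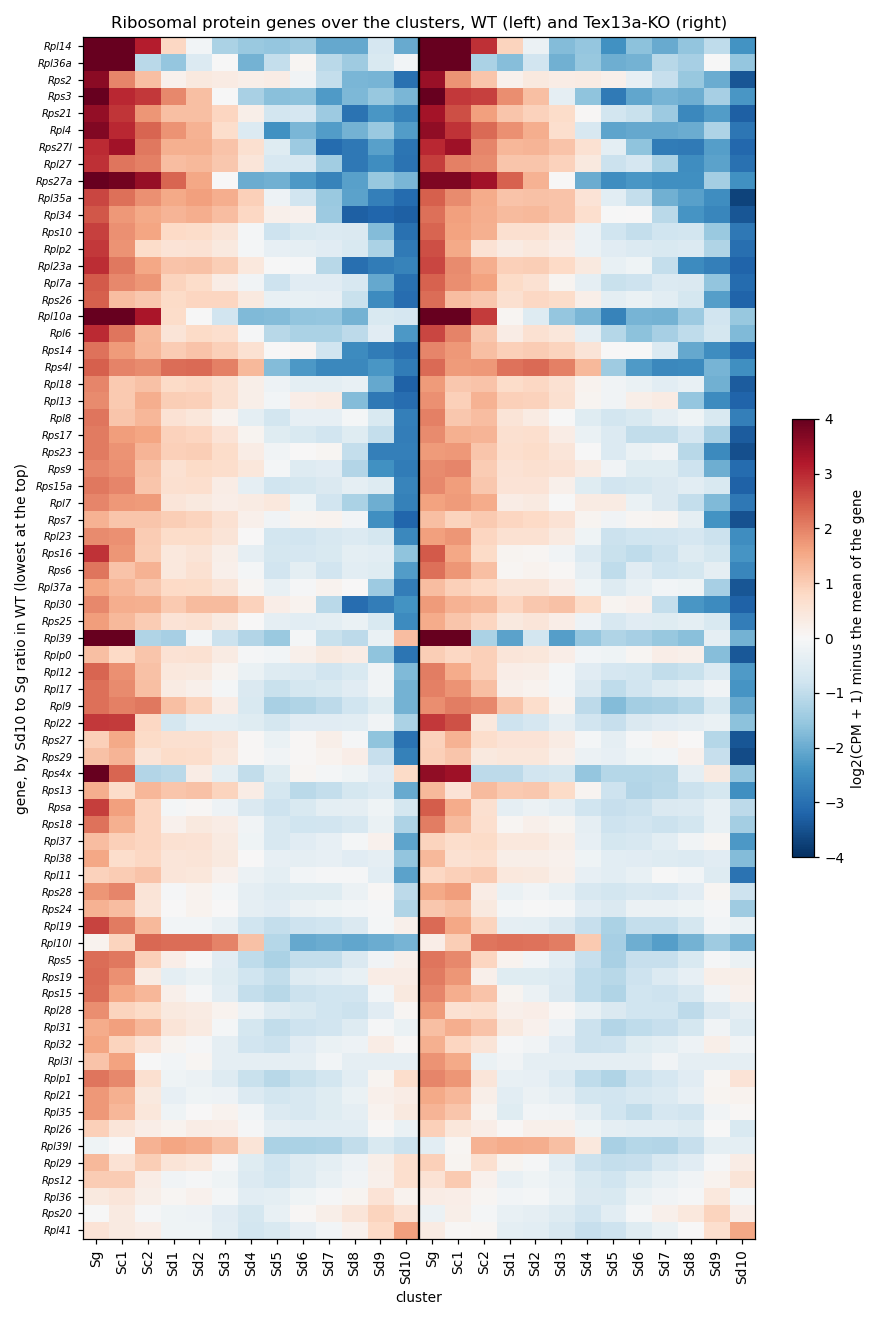
Levels of 71 of the 74 genes (rows) in the 13 clusters of WT (left) and KO (right), as log2(CPM + 1) minus the mean of the gene over all 26 sums. Most rows go from red (high) in Sg to blue (low) in Sd10, the X-linked Rpl36a, Rpl39 and Rps4x end after Sc1, Rpl39l and Rpl10l are highest from Sc2 to Sd3, and Rpl41 and Rps20, at the bottom, are highest in Sd9 or Sd10.

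The 3 X-linked members read were at or near 0 from Sc2 on. Rpl39 had 249 CPM in Sg, 438 in Sc1 and 1.55 in Sc2 of WT, and 233, 363 and 1.41 in KO. Rpl36a, a large-subunit protein at the tRNA exit site, had 653, 294 and 1.97 CPM in these clusters of WT and 574, 258 and 1.57 in KO. Rps4x, a small-subunit protein, had 63.3, 13.7 and 0.281 CPM in WT and 33.1, 29.4 and 0.393 in KO. From Sc2 on, none of the 3 genes passed 5.55 CPM in any cluster of either library, apart from Rpl39 in Sd10 of WT (12.8 CPM, 16 UMIs in 8 cells). The log2 ratio of Sc2 to Sg in WT was -7.23 (-8.34 to -6.48) for Rpl39 and -8.29 (-9.25 to -7.62) for Rpl36a, while the median member had -0.90.

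The autosomal paralog Rpl39l was highest where Rpl39 was near 0. In WT it had 489.6 CPM in Sg, 551 in Sc1, 1439 in Sc2 and 1629.7 in Sd1, its highest cluster, and in KO 407, 575, 1453 and 1557. Its share of the UMIs of the pair was 66.3% (63.5 to 68.9%) in Sg, 55.7% (52.6 to 58.8%) in Sc1 and 99.9% (99.8 to 99.9%) in Sc2 of WT (95% exact binomial intervals). In KO the shares were 63.6% (60.4 to 66.7%), 61.3% (57.6 to 64.9%) and 99.9% (99.8 to 99.9%). The 2 libraries thus gave the same switch between Sc1 and Sc2, with shares of 99.9% in Sc2 of both. In Sg and Sc1 a part of the Rpl39l UMIs may be free RNA of other cells: mRNAs that mark late spermatids were found in Sg of WT at 6.72 to 13.5% of their highest level and those of round spermatids at 2.42 to 12%, while Rpl39l stood at 30.04% and Rpl10l at 22.6% of theirs. How much of these UMIs is free RNA was not tested.

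After Sd4, Rpl39l dropped to a second, lower level. It had 788 CPM in Sd4 and 231 in Sd5 of WT, and 735 and 223 in KO. It then held 275 in Sd8, 357 in Sd9 and 304 in Sd10 of WT, and 289, 416 and 416 in KO. In Sd10 of WT it thus held 18.7% of its highest level, where Rpl10l held 5.34% and Rps4l 2.55% of theirs.

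Rpl10l, the testis paralog of the X-linked Rpl10 (whose own row is uncertain), was also highest after Sc1. It had 81 CPM in Sg, 135 in Sc1, 359 in Sc2, 288 in Sd3, 32.5 in Sd5 and 19.2 in Sd10 of WT. In KO these values were 87.7, 144, 326, 302, 28.3 and 19.3. Over the 26 sums, the genes most like Rpl10l were Wfdc15a, Vdac2, Mrpl39, Ruvbl2 and Gm20604, with Pearson's r of log2(CPM + 1) of 0.99 among 4299 genes with at least 1000 UMIs. Those most like Rpl39l were Hdgfl1, 1700018F24Rik, 1700037H04Rik, Slco6c1 and Tcp1, all with r of 0.98. The sums of a library share its depth and free RNA, so that r is a description only.

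Rps4l was already highest in Sg, where Rps4x was still read. It had 501 CPM in Sg, 353 in Sc2, 461 in Sd2 and 27.7 in Sd5 of WT, and 459.9, 324, 459 and 34.8 in KO. Its share of the pair was already 88.8% (86.6 to 90.7%) in Sg of WT and 93.3% (91.2 to 95%) in Sg of KO. Rps4x itself was low in Sg, at 63.3 CPM, beside a median member level there of 1307 CPM. Reads of Rps4x lost to near-identical copies would raise the share of Rps4l, and how many were lost was not tested.

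The pairs that hold no X-linked gene took other courses. Rps27l, the paralog of Rps27, made up less of its pair up to Sd7 and more again after Sd8: its share of the pair was 28.6% in Sg, 14.3% in Sd1 and 0.916% in Sd7 of WT, and 29.6%, 14.4% and 1.19% in KO. In Sd9 and Sd10 it was 5.94% (4.67 to 7.42%) and 8.66% (5.37 to 13.1%) in WT and 4.31% (3.37 to 5.42%) and 10.04% (6.54 to 14.6%) in KO. Rps27l itself stayed low, with 14.4 CPM in Sd7, 27.5 in Sd9 and 16 in Sd10 of WT, and 17.6, 27 and 13.6 in KO. Over these clusters Rps27 went from 1556 to 435 and 168 CPM in WT and from 1466 to 600.4 and 122 in KO. Rpl22 had 1810.5 CPM in Sg, 450.0 in Sc2 and 157 in Sd1 of WT, while its paralog Rpl22l1 had 334, 431 and 594 CPM. The share of Rpl22l1 in the pair went from 15.6% in Sg to 48.9% in Sc2 and 79.1% in Sd1 of WT, and back to 9.95% in Sd7. In KO it was 10.8%, 57.2%, 79.8% and 11.7%. Rpl22l1 was thus the larger part of its pair from Sd1 to Sd5 in both libraries. Rpl3l, known from muscle, had at most 3.45 CPM in any sum.

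**Figure D3:**
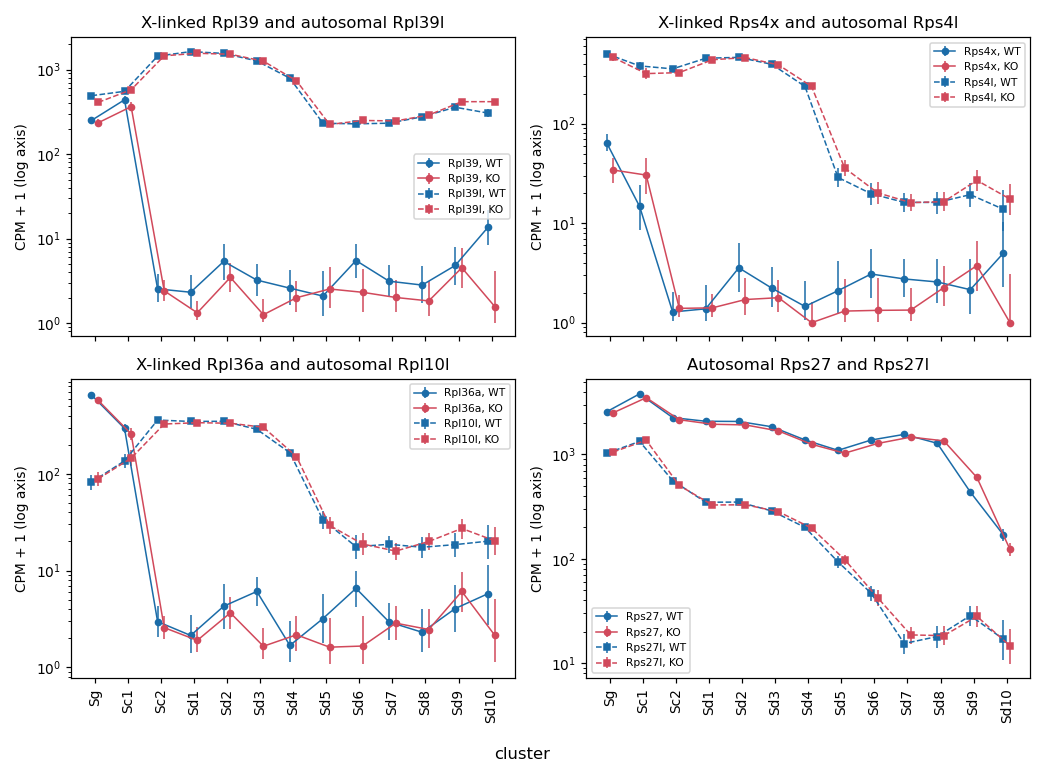
CPM + 1 on a log axis by cluster for 4 sets of genes in the WT (blue) and KO (red) library, with exact Poisson 95% intervals. X-linked Rpl39, Rps4x and Rpl36a (circles) drop below 7 CPM at Sc2 while autosomal Rpl39l, Rps4l and Rpl10l (squares) stay above 280 CPM up to Sd3. Rps27l stays below Rps27 in each cluster.

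In the late clusters the members parted. Of the 60 with at least 50 CPM in Sd6 of WT, 3 were first at least 2-fold below their Sd6 level in Sd7, 8 in Sd8, 10 in Sd9 and 13 in Sd10, and 26 in none of these. Of the 2022 rows with that level, 8.41, 18, 16.6, 13.1 and 43.9% did so, and of the members 5, 13.3, 16.7, 21.7 and 43.3%. These members, at least 2-fold below Sd6, are said here to have fallen by that cluster. Of the 59 members that had 50 CPM in both libraries, 50 were in the same class in KO, 5 in a later and 4 in an earlier one.

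The first to fall were Rpl34, Rpl30 and Rpl23a, all of the large subunit. Rpl34 had 419.8 CPM in Sd6, 133 in Sd7, 37.3 in Sd8 and 37.5 in Sd10 of WT, and 371, 175, 71.8 and 33.5 in KO. Rpl30 had 375, 161, 41 and 64.7 CPM in WT, and 389.5, 176, 66.8 and 35.8 in KO. In the same clusters Rps14, a small-subunit protein that was next to fall, had 493, 264, 80.9 and 55.9 CPM in WT and 457, 314, 111 and 53.9 in KO. Among 4299 genes, Rpl30, Rps14 and Rpl23a were the 3 most like Rpl34 over the 26 sums (r = 0.99, 0.99 and 0.99).

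Others fell by a later cluster. Rpl13, one of the 5 members with most UMIs, had 1129 CPM in Sd7 and 269 in Sd8 of WT, and 1136 and 309 in KO. Rps27 had 1279 CPM in Sd8, 435 in Sd9 and 168 in Sd10 of WT, and 1349, 600.4 and 122 in KO. Rps29, also of the small subunit, went from 1262 to 553 and 158 CPM over these clusters in WT and from 1164 to 552 and 85.7 in KO. Against Sd6, Rpl13 had fallen by Sd8, Rps27 by Sd9 and Rps29 by Sd10, in both libraries.

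The stalk of the large subunit, which recruits translation factors, is made of the proteins of Rplp0, Rplp1 and Rplp2, and these 3 mRNAs took separate ways. Rplp0 had 1020.1 CPM in Sd6, 1107 in Sd8, 292 in Sd9 and 118 in Sd10 of WT, and 938, 1039, 277 and 84.6 in KO. Rplp1 had 383, 531, 773 and 1170.3 CPM in WT, and 392, 525, 747 and 1034 in KO. The log2 ratio of Sd10 to Sd6 in WT was -3.11 (-3.36 to -2.87) for Rplp0, 1.61 (1.5 to 1.72) for Rplp1 and -2.50 (-2.87 to -2.15) for Rplp2, and in KO -3.47 (-3.72 to -3.23), 1.40 (1.29 to 1.51) and -2.49 (-2.84 to -2.18). The 3 stalk genes were chosen for this description after their values had been seen.

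A small group was highest in the last clusters. Rpl41, which encodes the smallest ribosomal protein, had 3223 CPM in Sg, 1316 in Sd4, 2493 in Sd8, 3843 in Sd9 and 6898 in Sd10 of WT, and 2790.2, 1158, 2243, 3534 and 6513 in KO. Rps20, of the small subunit, had 1804, 1109.6, 2548, 3392 and 2691 CPM in WT and 1525, 1053, 2445, 3382 and 2194 in KO. Rpl36, of the large subunit, was highest in Sd9 as well, with 1532 CPM in WT and 1408 in KO. Rpl41 was the 1 member at least 2-fold higher in Sd10 than in Sg in WT (1 of 73, against 12.2% of all rows read). Next in order of that ratio came Rps20, Rpl36, Rps12 and Rpl29, at 0.58, -0.28, -0.33 and -0.63 on the log2 scale in WT and 0.53, -0.40, -0.07 and -0.64 in KO.

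The mixture of ribosomal protein mRNAs therefore became uneven. In Sg of both libraries 22 members made up 50% of the UMIs of the group, and in Sd10 of both libraries 4 did. Rpl41, Rps20 and Rpl32 were among them in both, and Rpl41 alone held 30.2% in WT and 32.4% in KO. The effective number of members (2 to the power of the Shannon entropy of their shares) went from 62.1 in Sg over 45.8 in Sd5 to 18.4 in Sd10 of WT and from 61.4 over 45.5 to 17.1 in KO. The near-constant total share from Sd6 to Sd10 of WT thus covered a change in which genes carried it.

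Median annotated transcript length did not follow the order of the late classes. The median annotated transcript had 732 bases for the 11 members that fell by Sd7 or Sd8, 914 for the 10 of Sd9, 964 for the 13 of Sd10 and 784 for the 26 kept. Median GC content was 54.3, 51.6, 51.6 and 53.6%. The annotated 3' untranslated part had a median of 48 bases in the first class (42 to 66), 59 in that of Sd9 (29 to 283), 256 in that of Sd10 (35 to 4728) and 108.5 in the kept class (28 to 3167). These lengths come from the annotation and not from these cells. For each gene the transcript with the longest coding sequence was taken, and among equals the longest. Which transcripts these cells use was not tested.

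Other genes of protein synthesis were read from lists compiled by hand. Of the genes of mitochondrial ribosomal proteins, 42 of 42 were at least 2-fold lower in Sd10 than in Sg in WT, beside 72.8% of all rows. So were 14 of 15 ribosome biogenesis genes, 7 of 7 other growth-linked translation genes, 2 of 4 elongation factors and 16 of 27 initiation factors. The summed level of the initiation factors was 11559 CPM in Sg and 10622 in Sd10 of WT, where that of ribosome biogenesis went from 7403 to 597. Of 3 ribosomal protein genes outside the naming rule, Rpl22l1 and Rps3a1 were 2-fold lower, and Fau, which encodes the small-subunit protein eS30 fused to a ubiquitin-like part, had 1539 CPM in Sg and 1432 in Sd10 of WT and 1355 and 1365 in KO. Fau was also the second most like gene to Rpl41 over the 26 sums (r = 0.88), after Mpp6 (r = 0.88).

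The KO library had a lower share of ribosomal protein UMIs than the WT library in each of the 13 clusters. The log2 ratio of the shares was -0.20 (95% counting interval -0.21 to -0.19) in Sg, -0.11 in Sd5, -0.04 (-0.06 to -0.02) in Sd9, the smallest difference, and -0.18 (-0.21 to -0.16) in Sd10. Single members were below 0 in 69 of 73 cases in Sg, where 51.4% of all rows were, in 70 of 72 in Sc2 (58.9%), 41 of 73 in Sd9 (41.4%) and 63 of 71 in Sd10 (46.8%). Members lower in KO by 0.32 or more on the log2 scale, the limit used for all comparisons of KO with WT, numbered 14 of 73 in Sg, beside 24.5% of all rows read, 7 of 70 in Sd5 (20.6%), 4 of 73 in Sd9 (18.4%) and 34 of 71 in Sd10 (23%). In the other clusters they numbered 5 of 73 in Sc1 (24.4%), 6 of 72 in Sc2 (25.1%), 5 of 72 in Sd1 (18%), 7 of 73 in Sd2 (19.1%) and 8 of 73 in Sd3 (17.1%). In Sd4 and from Sd6 to Sd8 they were 7 of 72 in Sd4 (19.5%), 11 of 72 in Sd6 (19.1%), 4 of 73 in Sd7 (16.8%) and 3 of 73 in Sd8 (16.6%). In Sd10 the share of the members was thus above that of all rows, and in each of the other 12 clusters below it. The median log2 ratio of the members was nevertheless below that of all rows in each cluster, with -0.21 against -0.01 in Sg. These counts thus do not show that members were lowered less than other rows.

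**Figure D4:**
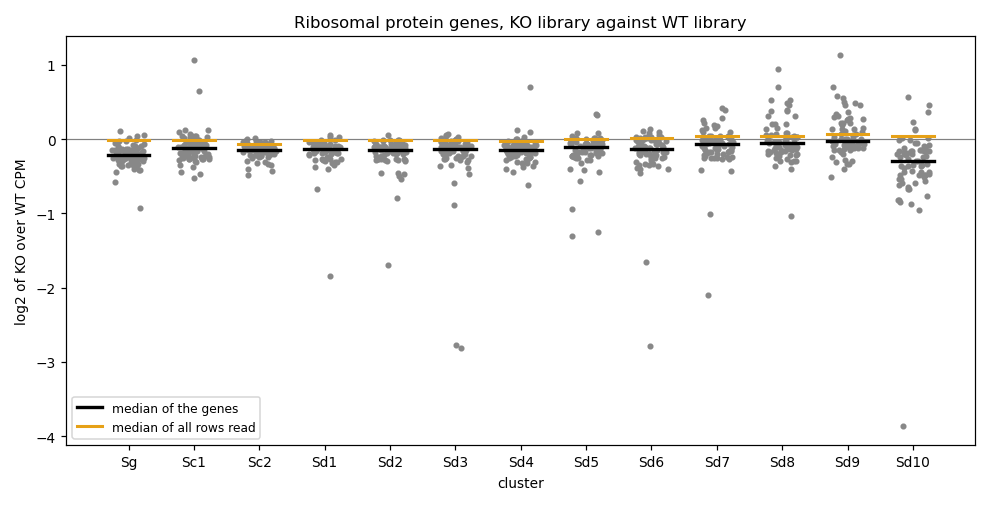
Log2 ratio of KO to WT CPM by cluster, 1 point per ribosomal protein gene with at least 10 UMIs in both libraries together, with the median of the genes (black) and of all rows read (orange). The black median lies below the orange one in each cluster, by most in Sd10 (-0.29 against 0.04), and the lowest points are X-linked genes with few UMIs.

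The count in Sd10 changed when few cells were left out. In WT 14 of 184 Sd10 cells hold a UMI of X-linked Rpl39, Rpl36a or Rps4x or of the macrophage gene Cd74, and in KO 3 of 278. Without these cells 18 of 69 members were lower by that limit, beside 20.7% of all rows, and the median log2 ratio moved from -0.29 to -0.16. Cd74 stood at 59.9 CPM in Sd10 of WT and at most at 1.17 CPM in any cluster of KO. The other macrophage genes read did not show this difference. Cd68 was at 0 CPM in Sd10 of both libraries, and C1qb had 56.7 CPM there in WT and 48.8 in KO. Whether these cells hold macrophage RNA was not tested. This alternative was chosen after the values had been seen, and it picks cells in part by UMIs of the members themselves. Members made up 2.78% of the UMIs of the cells left out in WT and 2.25% of the rest. In KO these shares were 2.14% and 2.01%. How far the choice of cells by itself changed the count was not tested. Of the markers of other cell types, those of Sertoli and endothelial cells had no gene with 1 possible row, and Cyp17a1 of Leydig cells was at most 10.2 CPM in any cluster.

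The 5 lowest ratios of KO to WT in Sd10 among the 47 members with at least 100 UMIs there were those of Rps29, Rpl30, Rpl11, Rps16 and Rpl37a. Rps29 had 158 CPM in WT and 85.7 in KO, a log2 ratio of -0.88 (95% counting interval -1.20 to -0.57). Rpl11, which with Rpl5 and the 5S RNA forms a part of the large subunit that also binds Mdm2, had 101 and 57.3 CPM, a log2 ratio of -0.82 (-1.21 to -0.43). Both genes had ratios near 0 in the cluster before, with log2 ratios of -0.00 (-0.11 to 0.10) for Rps29 and -0.09 (-0.23 to 0.04) for Rpl11 in Sd9. Rps16 and Rpl37a had log2 ratios in Sd10 of -0.77 (-1.31 to -0.24) and -0.68 (-1.08 to -0.28). Without the 14 and 3 cells named above, Rps29, Rpl30, Rpl11, Rps16 and Rpl37a stood at -0.78, -0.61, -0.82, -0.72 and -0.50. These 5 were picked for their low ratios from largely the same UMIs, so that an unchanged sign is no separate check.

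Among the same 47 members with at least 100 UMIs, the highest ratio was that of Rpl39l, with 304 CPM in WT and 416 in KO, a log2 ratio of 0.45 (0.27 to 0.63). It had been -0.27 (-0.42 to -0.11) in Sg, 0.07 (-0.05 to 0.19) in Sd8 and 0.22 (0.09 to 0.35) in Sd9. Among the next were Rps28 at 0.22 (0.03 to 0.42), Rpl23 at 0.12 (-0.26 to 0.49) and Rpl8 at 0.01 (-0.50 to 0.54), of which only Rps28 had a counting interval above 0. In all, 3 of 71 read members were higher in KO by the same limit, beside 29.9% of all rows. In the same cluster 8 of 26 initiation factors were higher and 2 lower by it, and of 29 mitochondrial ribosomal protein genes 9 were higher and 7 lower. Of the 5 members with most UMIs over both libraries, Rpl41 was at -0.08 (-0.12 to -0.04) in Sd10, Rpl13 at -0.17 (-0.50 to 0.17), Rpl32 at -0.20 (-0.30 to -0.11), Rps20 at -0.29 (-0.36 to -0.23) and Rps27 at -0.46 (-0.75 to -0.18). Rps27, which was lower by the limit, stood at -0.18 without the 14 and 3 cells named above.

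In Sd8 most members that had fallen by Sd9 had a ratio of KO to WT above 0. By late class in WT, 3 of 3 members of Sd7, 6 of 8 of Sd8 and 5 of 10 of Sd9 did. Of all rows in these classes, 143 of 170, 232 of 364 and 142 of 336 did. By the limit used, 9 of 73 members were higher in KO there, beside 25.4% of all rows. Of the 21 members that were at least 2-fold lower in Sd9 than in Sd6 in WT (29.2% of the 72 read, beside 31% of all rows), 14 had a log2 ratio of KO to WT above 0 in Sd8, and of the other 39 with 50 CPM in Sd6, 6 did. Among all other rows the shares were 58.4% of 830 and 49.2% of 1132. The median ratio was 0.20 for the members that fell and -0.10 for the others, against 0.04 and 0.00 for the other rows. With the fall taken from the KO library, 13 of 19 members that fell and 7 of 40 others were above 0, beside 59.3% and 51.2% of the other rows. In Sd7 the split was smaller: 9 of the 21 and 5 of the 39 were above 0, with medians of -0.04 and -0.10, beside 51.2% and 49.6% of the other rows. Neither Sd6 nor Sd9 enters the ratio in Sd8, but the split was chosen after the values had been seen.

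Rpl34 had 37.3 CPM in Sd8 of WT and 71.8 in KO, a log2 ratio of 0.94 (0.66 to 1.24), and Rpl30 41 and 66.8 CPM, a ratio of 0.70 (0.43 to 0.99). Rps14 had 0.46 (0.26 to 0.67). The same 3 genes were at 0.39 (0.25 to 0.53), 0.12 (-0.01 to 0.26) and 0.25 (0.15 to 0.35) in Sd7 and at -0.18 (-0.30 to -0.06), 0.06 (-0.06 to 0.18) and -0.11 (-0.22 to -0.00) in Sd6. Rpl23a and Rpl14, which complete the 5 highest of the members with at least 100 UMIs in Sd8, had 0.52 (0.07 to 0.99) and 0.48 (-0.04 to 1.03), and with each cell thinned to 3000 UMIs they stood at 0.04 and -0.06, and Rpl34 and Rpl30 at 0.76 and 0.67. In Sd10 the ratio of Rpl34 was -0.16 (-0.74 to 0.42) and that of Rpl30 -0.85 (-1.35 to -0.36).

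Markers of stage differed between the libraries in Sd8 as well. The 6 round spermatid markers had a median log2 ratio of KO to WT of 0.36 there, from 0.14 for Hemgn to 0.55 for Acr. They were low in Sd8, with a sum of 120 CPM in WT and 155 in KO, below the 231 CPM in Sg of WT. Tex36 had 11.5 and 16.7 CPM in Sd8, and Acr 11.2 and 16.5. How much of these UMIs is free RNA was not tested. The late spermatid marker Tnp1 was at -0.13 and Prm1 at 0.01. Over the 8 late spermatid markers the median was -0.03 in Sd8, with none past the limit in either direction. In Sd10 it was -0.09, with 2 of 8 lower by the limit (Tnp1 at -0.55 and Tnp2 at -0.41) and Car2 highest at 0.25. The haemoglobin genes, which mark red blood cells, summed to 615 CPM in Sd8 of KO and 5.74 in WT. Without the Sd8 cells that hold a UMI of these or of an X-linked member, 14 of 21 members that fell were again above 0. The part that stage has in these ratios was not tested.

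**Figure D5:**
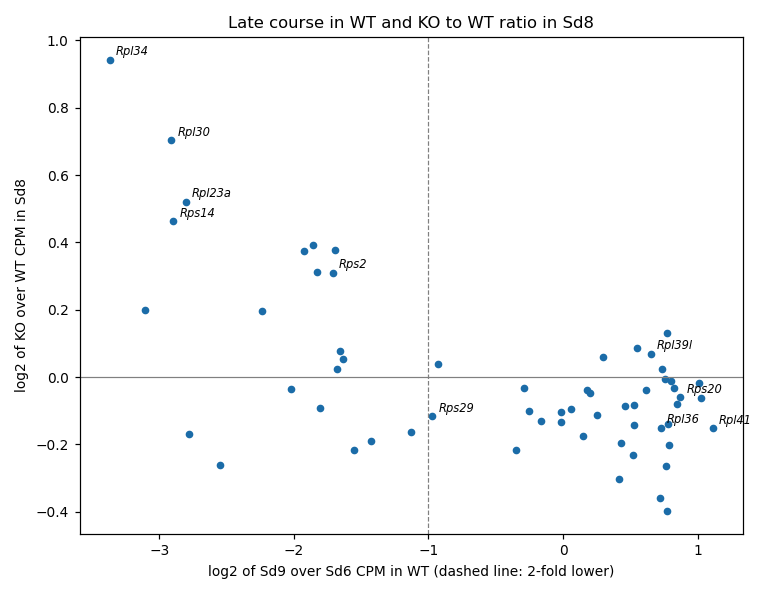
Log2 ratio of KO to WT CPM in Sd8 (vertical) against the log2 ratio of Sd9 to Sd6 CPM in WT (horizontal), 1 point for each of the 60 ribosomal protein genes with at least 50 CPM in Sd6 of WT. Of the 21 genes left of the dashed line (2-fold lower), 14 lie above 0, with Rpl34, Rpl30, Rpl23a and Rps14 highest, and of the 39 to its right 6 do.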

How the data were processed

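Per the labels and methods, testis cells of each genotype were captured in a microwell chip with barcoded beads, and poly(A) RNA was read from 1 library per genotype. The authors made the deposited UMI counts per gene row and cell with FastQC 0.11.7, fastp, STAR 2.5.3a on mm10, featureCounts 1.6.2 and Seurat 3.2.3 (versions as in the submitters' processing notes). They assigned each cell to a cluster after filtering and integration, so rare cell types may be missing. The deposited percent of mitochondrial UMIs per cell was used here to place symbols, since 25065 symbols come with the 26758 matrix rows. The rows of the 30 mitochondrial symbols were found where their sums gave that percent in all 12408 cells. Between them, a symbol was used when it had 1 possible row, allowing unnamed rows only where under 5 cells held a UMI. This gave 5476 symbols with 86.9% of the UMIs, and without that allowance 44 members would have 1 row.

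UMIs were summed per library and cluster with all cells kept and no doublet caller run, and given as CPM. Log2 ratios used a prior of 1 UMI, shared in proportion to depth, and at least 10 UMIs in the 2 sums. A ratio was counted at 0.32 on the log2 scale between KO and WT and at 2-fold between clusters, and late classes needed 50 CPM in Sd6. Intervals are exact at 95%: Poisson for CPM, binomial for shares, and for ratios binomial given the summed UMIs. With 1 library per genotype nothing measures the spread between mice. Named genes were both genes of the paralog pairs, the X-linked members, the 5 with most UMIs and those highest from Sd1 on. Also named were the 5 at either end of the Sd10 to Sg ratio. The same was done for the KO to WT ratio in Sd10, among members with at least 100 UMIs. The 5 genes most like a named one were named too. Some genes that this rule takes are not reported here. The 5 highest ratios in Sd8, the stalk genes and the examples of late classes were added after values had been seen. Members, lists and comparisons were chosen with earlier results of these data known. Sequences came from GRCm38 with GENCODE vM21 and from the RefSeq start table of GRCm38.p6. Scripts ran in Python 3.11.15 with numpy 2.4.6, scipy 1.17.1, pandas 2.3.3, Biopython 1.88 and matplotlib 3.10.9 and were tested on simulated data. Alternatives were other totals, centring, priors and UMI minimums, thinning of each cell to 3000 UMIs, means over cells, and leaving out the 5% of cells with most UMIs or cells with RNA of other types.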

Additional observations from a re-analysis of the deposited data

Results flagged for a closer look

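Rpl30, a large-subunit protein gene, had log2 ratios of KO to WT of opposite sign in 2 late clusters, 0.70 in Sd8 and -0.85 in Sd10, and 0.26 (95% counting interval -0.08 to 0.61) in Sd9 between them. The difference between these clusters was not tested, because each genotype is 1 library. Without the Sd10 cells that hold a UMI of Rpl39, Rpl36a, Rps4x or Cd74, the ratio in Sd10 was -0.61.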

How the results depend on the processing

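The log2 ratio of the ribosomal protein share in Sd10 to that in Sg of WT was -2.22 as reported, -2.24 with totals without mitochondrial genes, -1.70 with totals without the rows with most UMIs, -2.27 with thinned cells and as a mean over cells, -2.26 without the 5% of cells with most UMIs, and -2.25 without the Sd10 cells holding an X-linked member or Cd74. Those cells were chosen after seeing the data and in part by UMIs of the members themselves. Without them, the ratio of KO to WT in Sd10 was -0.16 instead of -0.18. By the limit used, 18 of 69 instead of 34 of 71 members were lower, beside 20.7% and 23% of all rows. Other settings gave 25 to 36 members. The 25, of 70 read and beside 22.6% of all rows, came without Sd10 cells of low Prm2, also chosen after seeing the data. With thinned cells it was 35 of 69, beside 22.5%. The remaining settings have no share of all rows beside them. Centred on the median of all rows, 43 instead of 67 members were 2-fold lower in Sd10 than in Sg, with no share of all rows taken for this setting. The Rpl39l share of its pair moved from 99.9% to 99.95% in Sc2 with thinned cells and from 66.3% to 63.4% in Sg as a mean over cells. Thinning turned the Sd8 ratio of Rpl14 from 0.48 to -0.062. The count of 14 of 21 members in Sd8 was read again in settings chosen after seeing the data. Most of these gave 13 or 14 of 19 to 22 members. With the fall taken from Sd5 to Sd10, it was 17 of 35. The causes were not tested. No paired analysis was possible because each genotype has 1 library. Rows of 10 members were not read, and sums in Sd10 rest on 184 and 278 cells.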
